A study of Mus musculus with 16 samples.

Results

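The genes of the NF-kB transcription factor family and of its inhibitors were followed in mouse pre-B cells before and after an adaptor of the pre-B cell receptor was switched on. The set holds 10 genes, taken by symbol from the 38918 features of the deposited tables, and all 10 were found. They are the subunit genes Rela, Rel, Relb, Nfkb1 and Nfkb2, the inhibitor genes Nfkbia, Nfkbie, Nfkbid and Nfkbiz, and Tnfaip3, the gene of the enzyme A20.

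All cells came from preB-cells of Blnk-/- KO mice, which lack the adaptor BLNK, and all carried a retroviral construct for overexpression of BLNK_ERt2, a fusion of BLNK to an oestrogen receptor domain that tamoxifen activates. The control cells thus carry the same deletion and the same fusion as the stimulated ones, and differ by the stimulation. The other 3 groups were stimulated for 0.5 h, 1.5 h and 5 h. The control cells' vehicle, the age of the mice and the clonality of the cells were not given in the sources used here. Each group is 4 sequencing lanes of 1 indexed library, summed here to 1 library, so there is no replicate spread and no test between conditions.

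NF-kB factors are pairs of subunits that share a DNA-binding domain. In resting cells IkB proteins hold them in the cytoplasm. Signals from antigen receptors reach the IKK kinase, which marks IkB for destruction and frees pairs such as RelA with p50, the canonical route. A slower, non-canonical route processes the p100 protein and frees RelB with p52. Several of the inhibitors are themselves NF-kB targets, which gives the pathway feedback. In early B cells NF-kB activity has been studied for its link to survival and to light chain gene activation.

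The libraries held between 30746189 and 34533362 total exon reads. Levels are given as CPM, exon reads of a gene per 1000000 total exon reads of its library. Every exon read of the 10 genes was uniquely placed. The control library had 3516 CPM of Blnk, and the stimulated ones 3533 to 3806 CPM. Reads of the gene and of the construct cannot be told apart, so this level does not check the labels. Of 10 pre-B markers 9 were found, all but Ebf1, with the lowest, Cd79b, at 282 CPM at 5 h. Blnk is among these 9, and its level does not mark the cell type here. None of the 7 T and NK cell markers or the 5 stromal markers reached 1 CPM in any library, and Cd4, Ncr1, Col3a1 and Dcn were at 0 reads in all 4. Among 5 myeloid markers found, summed at 72.4, 69.4, 61.7 and 38.3 CPM from control to 5 h, Itgam accounted for nearly all, with 69.0, 66.3, 58.5 and 35.9 CPM, while Csf1r was at most 0.276 CPM. Erythroid and megakaryocyte markers summed to between 9.17 and 10.6 CPM, mostly Hbb-bt. The part of these genes in the results was not tested. In such bulk samples fewer cells of a type and less RNA per cell cannot be told apart.

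Several of these genes are known targets of the family, so their promoters are shown as context for the levels that follow. The RNA data do not measure promoter activity. The kB motif, 10 bases that read GGG, a purine, any 2 bases, 2 pyrimidines and CC, was searched on both strands in the RefSeq windows of build GRCm38.p6, the mm10 assembly, that run from 250 bases before to 50 bases after each start site. Windows were found for 7 of the 10 genes, 12 windows in all. The motif was present for 6 of the 7 genes, in 8 of the 12 windows, beside 9.55% of all 27025 genes with such windows and 8.46% of all 32851 windows. Windows 2 and 3 of Nfkb2 overlap, and the same match was counted in both. The 7 genes also have more windows per gene than all genes do. Rela had no match in its window.

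The promoters of 3 inhibitors are printed whole because their windows hold no annotated exon before the start site and show where the matches lie. Each is the 250 bases before a start site, 5′ to 3′, with matches of the kB motif in capitals. Of the 3 start sites of Nfkbid, the middle one is shown, which held 2 matching stretches, while the windows of the other two held none.
Nfkbid, chr7:30422156-30422405, plus strand: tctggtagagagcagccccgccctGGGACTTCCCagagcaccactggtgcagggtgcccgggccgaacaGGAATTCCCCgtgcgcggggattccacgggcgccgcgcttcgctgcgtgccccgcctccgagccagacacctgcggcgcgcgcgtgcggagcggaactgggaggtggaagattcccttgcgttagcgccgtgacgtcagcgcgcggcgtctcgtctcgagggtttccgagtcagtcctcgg
Nfkbia, chr12:55492648-55492897, minus strand: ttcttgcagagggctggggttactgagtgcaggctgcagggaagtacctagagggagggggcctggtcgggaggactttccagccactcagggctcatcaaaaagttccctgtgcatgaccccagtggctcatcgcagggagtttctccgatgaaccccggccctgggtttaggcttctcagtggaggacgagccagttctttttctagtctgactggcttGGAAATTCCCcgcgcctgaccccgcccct
Nfkbie, chr17:45555450-45555699, plus strand: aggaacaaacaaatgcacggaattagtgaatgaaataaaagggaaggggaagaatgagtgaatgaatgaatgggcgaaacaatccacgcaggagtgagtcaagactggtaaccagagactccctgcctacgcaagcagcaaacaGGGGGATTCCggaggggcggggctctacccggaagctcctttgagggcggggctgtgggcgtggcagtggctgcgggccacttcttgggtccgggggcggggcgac

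For Rel, Nfkb2 and Tnfaip3 chosen matches with 10 bases on each side are shown, since annotated exons reach into their windows. Rel held a second match that overlaps the printed one, shifted by 1 base and not capitalised in full. Nfkb2 held further matches in its 3 windows and Tnfaip3 1 more in its 2 windows. A match describes letters in a window and says nothing of binding in these cells.
Rel, chr11:23771042-23771071, minus strand: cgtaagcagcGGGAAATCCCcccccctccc
Nfkb2, chr19:46304688-46304717, plus strand: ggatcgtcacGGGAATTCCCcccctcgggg
Nfkb2, chr19:46305695-46305724, plus strand: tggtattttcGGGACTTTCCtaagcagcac
Tnfaip3, chr10:19015403-19015432, minus strand: aatttccatcGGAAATCCCCctgttggcaa

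The 10 genes fell into an early group, a later group and 1 gene with nearly level values. Rel, Nfkbia, Nfkbid, Nfkbiz and Tnfaip3 had their highest level at 0.5 h. Relb, Nfkb2, Rela and Nfkbie had theirs at 1.5 h, and Nfkb1 was highest in the control library. None of the 10 was highest at 5 h, where 29.6% of the 9589 genes with at least 5 CPM in a library had their highest level, and 6 of the 10 were lowest there, beside 31.3% of all such genes. At 0.5 h 19.4% of all such genes were highest, at 1.5 h 24.1% and in the control library 26.9%. The 6 lowest at 5 h were Rela, Relb, Nfkb1, Nfkbia, Nfkbie and Nfkbid.

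**Figure D1:**
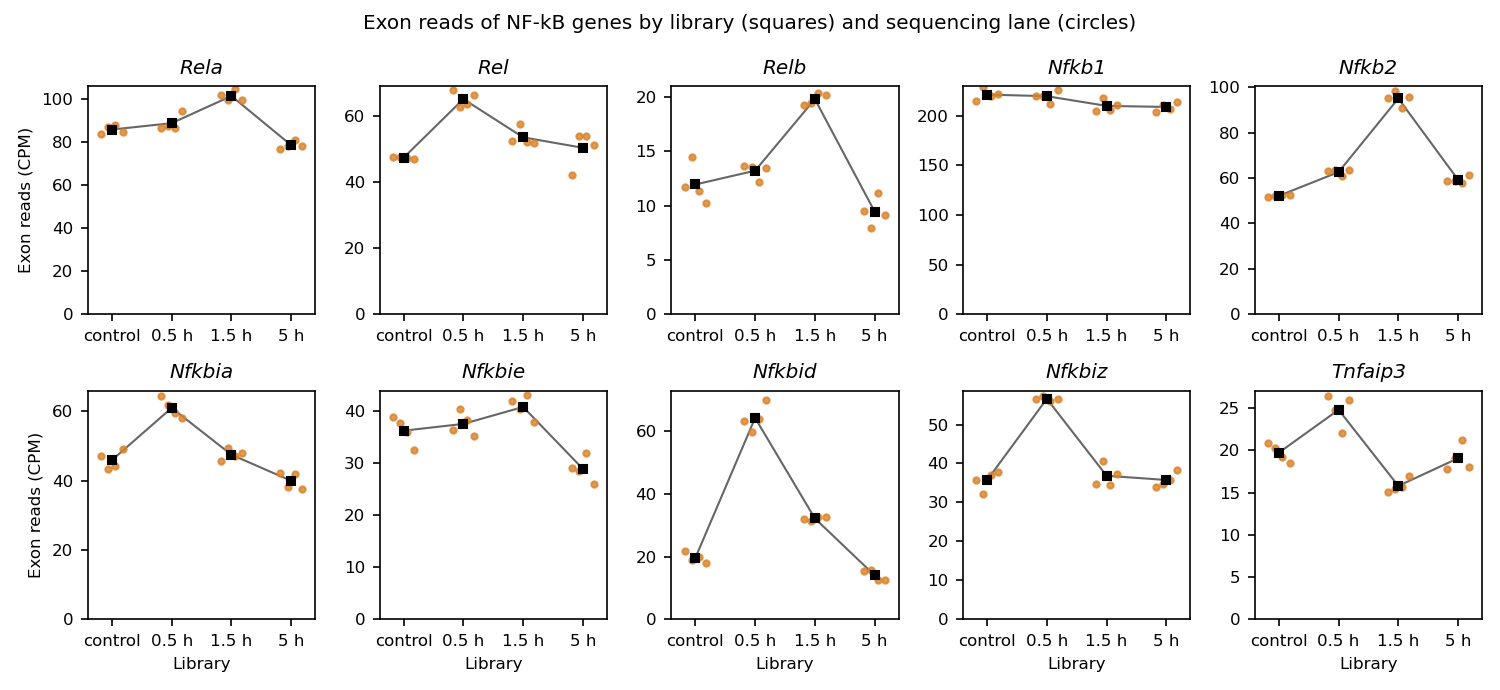
Exon reads (CPM, linear axis from 0) of the 10 genes in the control, 0.5, 1.5 and 5 h libraries. Squares are summed libraries joined by lines and circles are the 4 lanes of each library, which are technical. Nfkbid stands at 64.3 CPM at 0.5 h and Nfkb2 at 95.1 CPM at 1.5 h, above every lane of the other libraries.

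Nfkbid changed most. It encodes the nuclear protein IkBNS, which binds NF-kB dimers on DNA and modulates their targets. It lies on chromosome 7 (30421732 to 30428746, mm10). Its level was 19.5 CPM in the control library, 64.3 CPM at 0.5 h, 32.2 CPM at 1.5 h and 14.0 CPM at 5 h. The library at 0.5 h was the highest and that at 5 h the lowest, and the lane ranges of the 4 libraries did not overlap, running from 17.8 to 21.8, 59.9 to 70.1, 31.4 to 32.7 and 12.4 to 15.6 CPM in the same order. Against control Nfkbid was 3.29-fold higher at 0.5 h (95% interval 3.02 to 3.59). At 1.5 h the ratio was 1.65-fold (1.49 to 1.82), and at 5 h the level lay 1.40-fold under control (1.24 to 1.58). These are exact intervals of the split of reads, which cover counting error only and say nothing of the spread between cultures.

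At 0.5 h Nfkbid was called higher, 1 of the 10 genes, and 0 were called lower. A gene was called where the ratio of CPM plus 1 reached 2-fold and the higher of the 2 levels was 5 CPM or more. Over all 9516 genes at that floor 0.284% were called higher and 0.021% lower at 0.5 h. The log2 ratio of Nfkbid on this scale, 1.67, was exceeded by 12 genes. At 1.5 h against control 0 of the 10 were called, beside 0.641% of genes called higher and 0.21% called lower. At 5 h 0 were called, beside 0.336% and 0.399%.

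Between successive times Nfkbid went down again. From 0.5 h to 1.5 h it was 2.0-fold lower (1.86 to 2.15), with a log2 ratio of -0.98, just outside the rule. In that step 0 of the 10 were called, beside 0.189% of all genes higher and 0.221% lower. From 1.5 h to 5 h it was 2.30-fold lower (2.05 to 2.58), 1 of the 10 genes called lower, beside 0.444% of all genes, and 0 were called higher, beside 0.0952%. That call ended with a pseudocount of 5 CPM.

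Nfkbid also had more reads outside exons at 0.5 h. These are the reads that fall in the gene but not in its annotated exons, and unspliced RNA is their usual source. Here they numbered 216, 884, 355 and 191, which is 6.25, 26.1, 10.9 and 6.21 per 1000000 total exon reads. The level at 0.5 h stands above the other 3 libraries. It was 4.17-fold that of control (3.59 to 4.87), and 1 of the 7 members with at least 5 such reads per 1000000 in either library was called higher in these reads, beside 0.347% of 6919 genes, and 0 lower, beside 0.101%. At 1.5 h and at 5 h against control 0 members were called in these reads, beside 2.11% of genes higher and 0.355% lower at 1.5 h, and 0.482% and 0.0851% at 5 h. From 0.5 h to 1.5 h the reads of Nfkbid outside exons were 2.40-fold lower (2.12 to 2.72) and called, beside 0.213% of genes lower and 1.15% higher. Reads that cross an intron and exon border were 41, 181, 80 and 16 in the same order, 4.50-fold higher at 0.5 h (3.19 to 6.48). Reads that join 2 exons, which come from spliced RNA, were 3.16-fold higher at 0.5 h (2.65 to 3.79). At 5 h border reads were at 0.438 of the control level (0.230 to 0.798), while all reads outside exons were at 0.993 (0.813 to 1.21). Exon reads stood at 0.716 of control at 5 h (0.633 to 0.809), an interval that ends just below that of all reads outside exons. Over all genes with at least 5 CPM outside exons, the median log2 ratio of these reads at 5 h was 0.17. Scaled to the sum of reads outside exons, the Nfkbid ratio was 0.906, nearer to that of exon reads, so the separation depends on the scale.

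The 3 ratios to control were used to find genes with a pattern like that of Nfkbid, by Euclidean distance of log2 ratios among 9050 other genes. The nearest was Ier2, an immediate early gene, at a distance of 0.214, followed by Dusp2, a phosphatase of MAP kinases, at 0.354 and Cish, a suppressor of cytokine signalling, at 0.440. Ier2 went from 32.3 CPM in control to 97.0, 49.6 and 26.1 CPM. The 3 ratios share the control library, and only 38.4% of the exon reads of Cish were uniquely placed.

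Nfkbiz, on chromosome 16 (55811375 to 55838899), had the same early timing at a smaller size. It encodes IkB zeta, another nuclear regulator of NF-kB. Its levels were 35.7, 56.6, 36.8 and 35.7 CPM from control to 5 h, so that the library at 0.5 h stood alone. It was 1.59-fold higher than control at 0.5 h (1.48 to 1.70) and 1.54-fold lower at 1.5 h than at 0.5 h (1.43 to 1.65). Its reads outside exons were 1.66-fold higher at 0.5 h (1.49 to 1.87). At 5 h its exon reads stood at 1.0-fold control (0.922 to 1.09), and its reads outside exons at 1.28-fold (1.13 to 1.45). Over the genes with at least 5 CPM outside exons, the median log2 ratio of these reads at 5 h was 0.17 and 77.6% of genes were above 0. Scaled to the sum of reads outside exons, the Nfkbiz ratio was 1.16-fold.

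With a limit of 1.5-fold in place of 2-fold, Nfkbid and Nfkbiz were the 2 members called higher at 0.5 h, beside 0.673% of all genes, and 0 were called lower, beside 0.147%. At 1.5 h the 3 called higher were Nfkbid, Nfkb2 and Relb, beside 3.37% of all genes, and 0 lower, beside 1.99%. At 5 h 0 of the 10 passed this limit in either direction, beside 2.21% of genes higher and 2.98% lower. From 0.5 h to 1.5 h Nfkb2 passed upward, beside 1.76% of genes, and Nfkbid, Nfkbiz and Tnfaip3 downward, beside 1.84%. From 1.5 h to 5 h Nfkb2, Nfkbid and Relb passed downward, beside 2.12%, and 0 upward, beside 1.3%.

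The classical inhibitors Nfkbia and Nfkbie were not called in any comparison. Nfkbia, on chromosome 12 (55489411 to 55492647), encodes IkB alpha, the inhibitor that IKK targets first and that NF-kB induces again. It stood at 45.9 CPM in the control library, 61.0 CPM at 0.5 h, 47.5 CPM at 1.5 h and 39.9 CPM at 5 h. The 4 lanes at 0.5 h, between 58.1 and 64.6 CPM, were above all 12 others. The gene was 1.33-fold higher than control at 0.5 h (1.24 to 1.42) and 1.15-fold lower at 5 h (1.07 to 1.24). Only 30, 34, 34 and 13 of its reads lay outside exons, too few to set beside the exon ratios at 0.5 h, where their interval ran from 0.686 to 1.96. At 5 h, with 13 such reads, they were at 0.487 of control (0.233 to 0.962).

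Nfkbie, on chromosome 17 (45555716 to 45563169), encodes IkB epsilon, an inhibitor that binds RelA and c-Rel dimers. Its levels were 36.2, 37.5, 40.8 and 28.9 CPM from control to 5 h. The first 3 libraries had overlapping lane ranges and the library at 5 h was the low one. It was 1.25-fold lower than control at 5 h (1.15 to 1.37), and 1.04-fold control at 0.5 h (0.958 to 1.12).

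Tnfaip3, on chromosome 10 (19000910 to 19015657), encodes A20, a ubiquitin-editing enzyme that shuts off signals upstream of IKK. Its levels were 19.7, 24.8, 15.8 and 19.1 CPM from control to 5 h. The gene was highest at 0.5 h, 1.26-fold over control (1.14 to 1.39), and lowest at 1.5 h, 1.25-fold under control (1.11 to 1.40). It was the only member whose level at 1.5 h was the lowest of the 4. From 0.5 h to 1.5 h it was 1.57-fold lower (1.41 to 1.76), and from 1.5 h to 5 h 1.21-fold higher (1.07 to 1.36), the 1 member above 0 in that comparison.

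**Figure D2:**
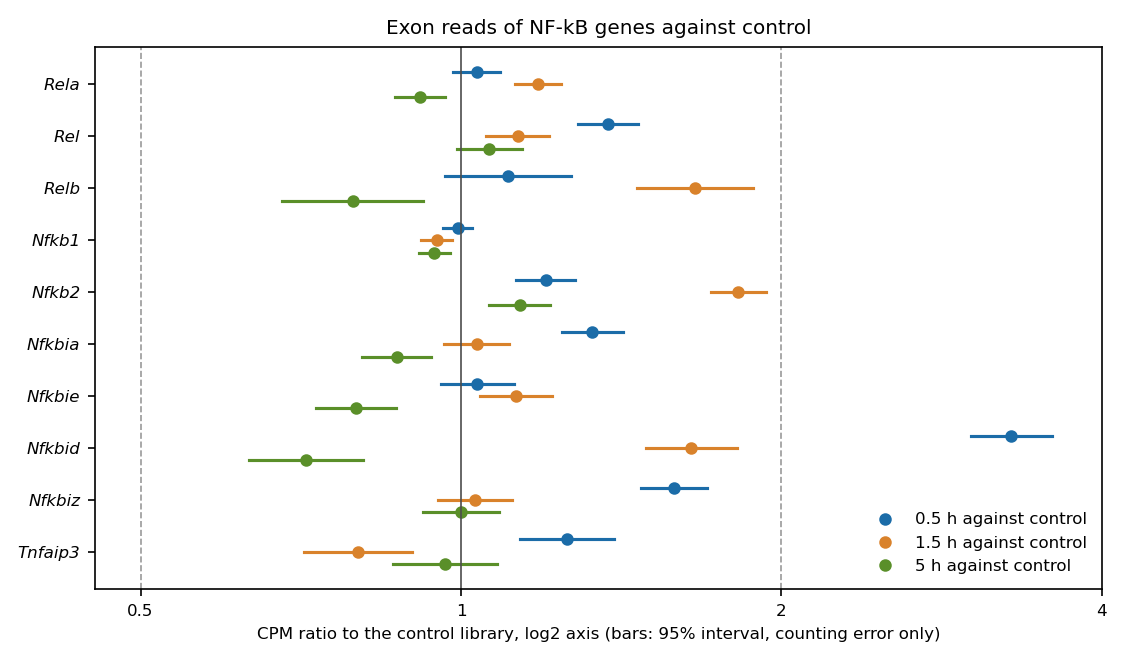
CPM ratios of the 10 genes to the control library on a log2 axis, for 0.5 h (blue), 1.5 h (orange) and 5 h (green). Bars are 95% intervals that cover counting error only and dashed lines mark 2-fold. Nfkbid at 3.29-fold is the 1 point beyond 2-fold, and Nfkb2 and Relb lie furthest right at 1.5 h.

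The later group holds the gene pair of the non-canonical route. Nfkb2, on chromosome 19 (46304737 to 46312090), encodes p100, the precursor of p52. It stood at 52.2 CPM in the control library, 62.6 CPM at 0.5 h, 95.1 CPM at 1.5 h and 59.2 CPM at 5 h. The lanes at 1.5 h, from 91.0 to 98.2 CPM, were above every lane of the other libraries. The gene was 1.82-fold higher than control at 1.5 h (1.72 to 1.93) and 1.61-fold lower at 5 h than at 1.5 h (1.51 to 1.70). On the scale of calls its log2 ratio at 1.5 h was 0.85, exceeded by 103 of 9512 genes.

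Relb, on chromosome 7 (19606217 to 19629438), encodes the partner of p52. Its level was 12.0 CPM in the control library, 13.2 CPM at 0.5 h, 19.8 CPM at 1.5 h and 9.46 CPM at 5 h. The libraries of control and 0.5 h overlapped in their lanes, and all lanes at 1.5 h were above them. It was 1.66-fold higher than control at 1.5 h (1.46 to 1.88) and 2.09-fold lower at 5 h than at 1.5 h (1.82 to 2.41). The log2 ratio of the latter, -0.99, lay just outside the rule. It passed the rule without lane 1 and without lane 3.

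Nfkb2 and Relb differed in their reads outside exons. Those of Relb numbered 132, 192, 281 and 92 from control to 5 h. They were 1.48-fold higher than control at 0.5 h (1.18 to 1.87), when its exon reads were at 1.11-fold (0.966 to 1.27), and 2.25-fold higher at 1.5 h (1.83 to 2.79). From 1.5 h to 5 h they were 2.88-fold lower (2.27 to 3.68), the 1 member called lower in these reads, beside 0.529% of genes, with 0 called higher, beside 0.293%. Border reads of Relb were only 9, 9, 9 and 5 from control to 5 h. Its junction reads were at 0.788 of control at 0.5 h (0.603 to 1.03) and at 1.56-fold at 1.5 h (1.25 to 1.96). Reads of Nfkb2 outside exons numbered 225, 235, 211 and 176, at 0.992-fold control at 1.5 h (0.819 to 1.20). The intervals of its exon reads and of its reads outside exons at 1.5 h do not overlap. Its junction reads were 1.81-fold higher at 1.5 h (1.65 to 1.99), close to its exon reads. Border reads of Nfkb2 numbered 43, 54, 53 and 42 from control to 5 h. At 1.5 h they were at 1.30-fold control (0.856 to 1.998), an interval that holds both 0.992 and the exon ratio of 1.82. For Relb the border ratio at 1.5 h was 1.06-fold (0.372 to 3.01). Border reads were thus too few to show whether the 2 genes differed in unspliced RNA. The share of Nfkb2 gene reads that lay outside exons went from 11.1% in the control library (exact 95% interval 9.77 to 12.6) to 6.37% at 1.5 h (5.56 to 7.25).

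Exons of Nfkb2 overlap 2 annotated genes on the opposite strand. AC114539.1, a noncoding RNA that starts inside Nfkb2, shares 875 bases of the span and is not in the tables by that name. Psd, a gene that runs toward Nfkb2, shares 4 bases at the end. Psd stood at 14.5, 18.8, 27.0 and 14.1 CPM from control to 5 h, also highest at 1.5 h. The strand of the counts was not given in the sources used here, so reads of either strand cannot be told apart, and the part of these genes in the Nfkb2 counts was not tested. No other member shares exon sequence with an annotated gene in GENCODE vM21. Nfkb1 holds Gm43430, 3897 bases on its own strand outside its exons.

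**Figure D3:**
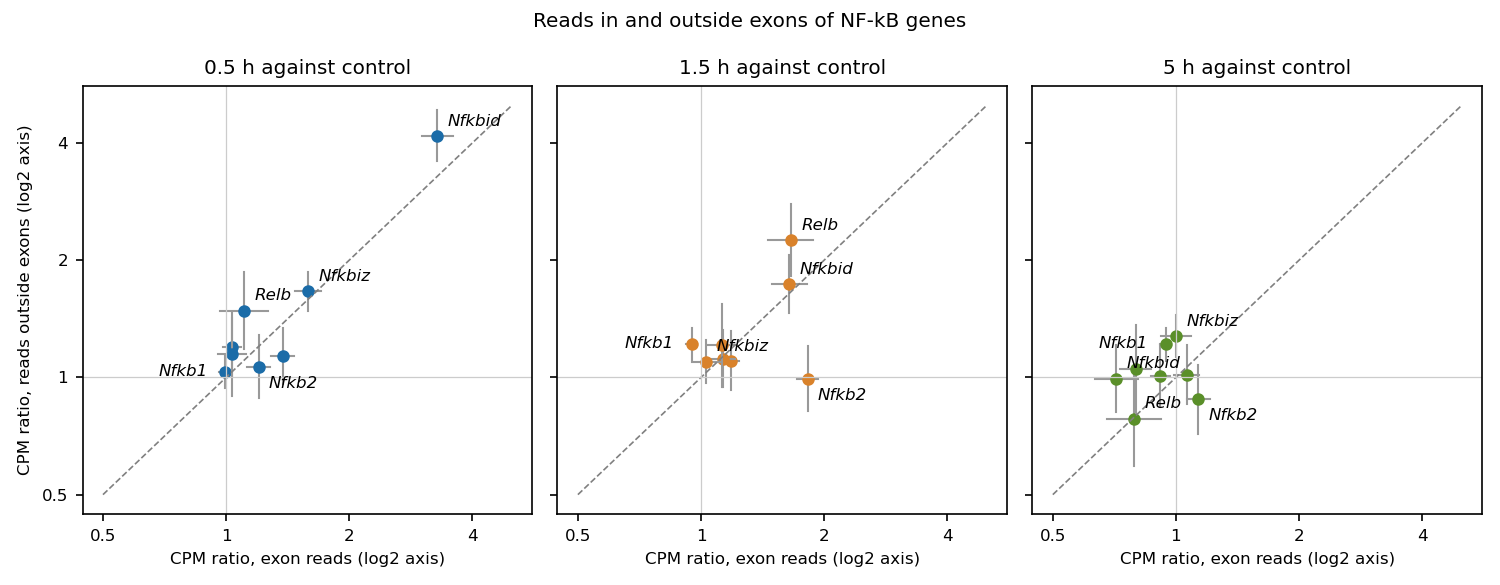
CPM ratios to control of reads outside exons (vertical) against those of exon reads (horizontal), both on log2 axes, in panels for 0.5, 1.5 and 5 h. Lines are 95% intervals of counting error and the dashed diagonal marks equal ratios. Nfkbia and Tnfaip3 are left out for their few reads. Nfkbid lies at 3.29-fold and 4.17-fold at 0.5 h, and at 1.5 h Relb lies above the diagonal and Nfkb2 below it.

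Rela and Rel encode subunits with activation domains, and they were highest at different times. Rela, on chromosome 19 (5637483 to 5648130), encodes p65. It stood at 85.9, 88.9, 102 and 78.6 CPM from control to 5 h, 1.18-fold over control at 1.5 h (1.12 to 1.24) and 1.09-fold under it at 5 h (1.04 to 1.15). Rel, on chromosome 11 (23741514 to 23770970), encodes c-Rel, a subunit of high abundance in lymphocytes. It stood at 47.3, 65.1, 53.5 and 50.3 CPM, with the library at 0.5 h highest. The Rel level was 1.37-fold over control at 0.5 h (1.29 to 1.47). By 5 h its ratio was 1.06-fold (0.991 to 1.14). At 5 h its 4 lanes spread from 42.2 to 54.0 CPM. Reads outside the exons of Rel were at 1.13-fold control at 0.5 h (0.961 to 1.34).

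Nfkb1, on chromosome 3 (135584655 to 135691547), encodes p105, the precursor of p50, and was the most abundant of the 10 per length. Its levels were 221, 219, 210 and 209 CPM from control to 5 h. The spread of these 4 values was small, with 5 h 1.06-fold below control (1.02 to 1.10). Its reads outside exons stood at 1.22-fold control at 1.5 h (1.11 to 1.34) and again at 5 h (1.10 to 1.34). Scaled to the sum of reads outside exons these were 1.18-fold and 1.11-fold. Reads of Gm43430 cannot be told apart from these, and its part was not tested.

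Levels of different genes were compared per length, as RPKM, the CPM divided by the kilobases of exon. In the control library the order was Nfkb1 (46.3 RPKM), Rela (31.6), Nfkbia (29.1), Rel (16.9), Nfkb2 (15.9), Nfkbie (15.0), Nfkbid (8.33), Nfkbiz (7.12), Relb (3.08) and Tnfaip3 (2.73). The neighbours Rela and Nfkbia, Nfkb2 and Nfkbie, and Relb and Tnfaip3 overlapped in their lane ranges. By 0.5 h Nfkbid stood at 27.4 RPKM, between Rela at 32.7 and Rel at 23.2, and moved from the seventh place to the fourth. At 5 h it was at 5.96 RPKM, below Nfkbiz at 7.12. Nfkb2 reached 28.9 RPKM at 1.5 h, where its lanes overlapped those of Nfkbia at 30.1 RPKM. Relb was at most 5.25 RPKM in any lane.

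Summed per length, the 5 subunit genes stood at 114, 124, 134 and 111 RPKM from control to 5 h. The atypical inhibitors Nfkbid and Nfkbiz together went from 15.4 to 38.7 RPKM at 0.5 h, then to 21.1 and 13.1 RPKM. Nfkbia and Nfkbie together stood at 44.1, 54.2, 46.9 and 37.3 RPKM. At 0.5 h the atypical inhibitors thus showed the greatest relative move of these 3 groups, and at 5 h all 3 sums were below those of control.

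**Figure D4:**
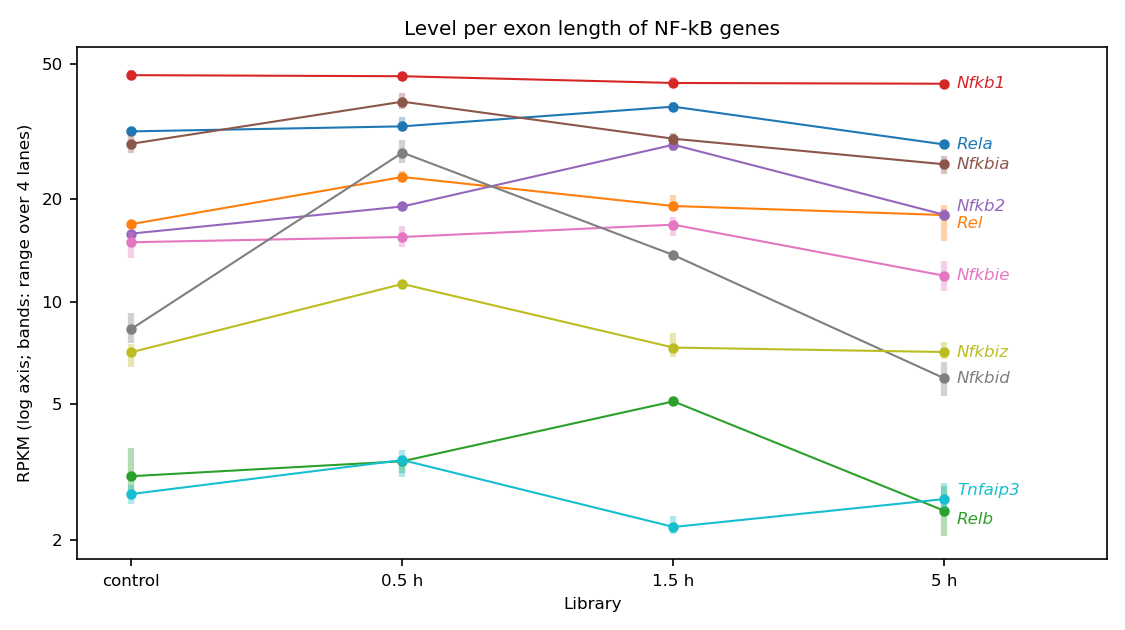
Level per exon length (RPKM, log axis) of the 10 genes in the 4 libraries, with bands for the range over lanes. Nfkbid crosses Rel, Nfkb2 and Nfkbie between control and 0.5 h, and crosses below Nfkbiz by 5 h, while Nfkb1 stays on top at 43.7 to 46.3 RPKM.

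As a set, the 10 genes had a median log2 ratio of 0.29 at 0.5 h, 0.17 at 1.5 h and -0.10 at 5 h against control, beside -0.003, -0.005 and 0.003 over all genes tested. At 0.5 h 9 were above 0 and 1 below, at 1.5 h 8 and 2, and at 5 h 3 and 7. Of all genes tested 48.9%, 48.9% and 50.5% were above 0 at these times. The counting interval of the ratio lay above 1 for 6 genes and below 1 for 0 at 0.5 h, beside 21.6% and 20.6% of all genes tested. At 1.5 h it lay above 1 for 6 and below 1 for 2, beside 32.5% and 32.4%. At 5 h it lay above 1 for 1 gene, Nfkb2, and below 1 for 6, beside 34.3% and 33.2%. These comparisons share the control library. From 1.5 h to 5 h 9 of the 10 were below 0, with a median of -0.30, beside -0.007 over all genes.

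The genes around the family were taken from 5 lists written from general knowledge, with earlier results of these data known. Calls within these lists are therefore not independent of those results. Over all genes tested, 0.284%, 0.641% and 0.336% were called higher at 0.5, 1.5 and 5 h, and 0.021%, 0.21% and 0.399% lower. The medians over all genes were -0.003, -0.005 and 0.003. The list of signalling to IKK holds adaptors, kinases and ubiquitin ligases of both routes. All 25 were measured, at 1 CPM or more in either library, and 0 were called at any time against control, with medians of 0.02, 0.04 and -0.01. Traf3, an adaptor of the complex that keeps the non-canonical kinase NIK low, was 1.36-fold higher at 1.5 h (1.27 to 1.45). Map3k14, the gene of NIK, was 1.15-fold higher at 0.5 h (1.04 to 1.28) and 1.48-fold lower at 1.5 h than at 0.5 h (1.32 to 1.66).

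The list of receptors that feed the pathway holds 13 genes, among them Tnfsf13b, the gene of the ligand BAFF. Of these 6 were measured, all receptors, and 0 were called against control. Tlr9, a receptor for DNA, went from 21.9 CPM in control to 33.3 at 0.5 h and 41.8 at 1.5 h, 1.91-fold higher (1.75 to 2.09), and back to 24.9 at 5 h. Tnfrsf13c, the receptor for the survival factor BAFF, was 1.58-fold lower than control at 5 h (1.44 to 1.74), and Tlr4 1.50-fold higher (1.38 to 1.63). The list medians were 0.04, 0.29 and 0.19 at the 3 times.

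The list of ubiquitin editing genes and other brakes had 15 measured genes of 17, with 0 called and medians of 0.03, -0.06 and -0.003. Rnf31, Rbck1 and Sharpin on this list are not brakes, so its medians do not describe brakes alone. Zc3h12a, an RNase that degrades inflammatory mRNAs, was 1.45-fold higher at 0.5 h (1.32 to 1.59) and 1.48-fold lower at 5 h (1.32 to 1.66). Tnip2, a partner of A20, was 1.55-fold higher at 1.5 h (1.43 to 1.68). Of 4 further IkB proteins 2 were measured. Nfkbib, the gene of IkB beta, stood at 31.3, 31.3, 33.4 and 28.9 CPM from control to 5 h, and Nfkbil1 at 27.5, 27.9, 28.2 and 29.2 CPM. Bcl3, a nuclear member of the family, had 5, 2, 6 and 2 reads.

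The list of NF-kB targets outside the family split in both directions. Of 42 genes 26 were measured, and 23, 23 and 22 reached the 5 CPM that a call needs at 0.5, 1.5 and 5 h. At 0.5 h the calls were 4 higher and 0 lower, beside 0.284% and 0.021% of all genes, and the median was 0.06. These were Ccl3 at 8.04-fold (5.67 to 11.7), Myc at 3.15-fold, Junb, an AP-1 subunit, at 2.66-fold (2.49 to 2.84) and Tnf at 2.36-fold. At 1.5 h Ccl3, Irf4, Myc and Junb were called higher and none lower by this rule, beside 0.641% and 0.21%. The median was -0.01. Ccl4, under 5 CPM in every library and so not called, had 2, 57, 138 and 34 reads from control to 5 h. Its log2 ratio at 1.5 h was 2.31. Slfn2, also under 5 CPM in every library, went the other way, with 96, 59, 22 and 25 reads and a log2 ratio of -1.17 at 1.5 h. Of the 26 measured targets 13 were above 0 and 13 below at 1.5 h. At 5 h Irf4 was called higher, and Lta and Bcl2l1 lower, beside 0.336% and 0.399%, with a median of -0.10. Irf4, Myc and Junb have other known regulators as well, so this list does not read NF-kB alone.

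**Figure D5:**
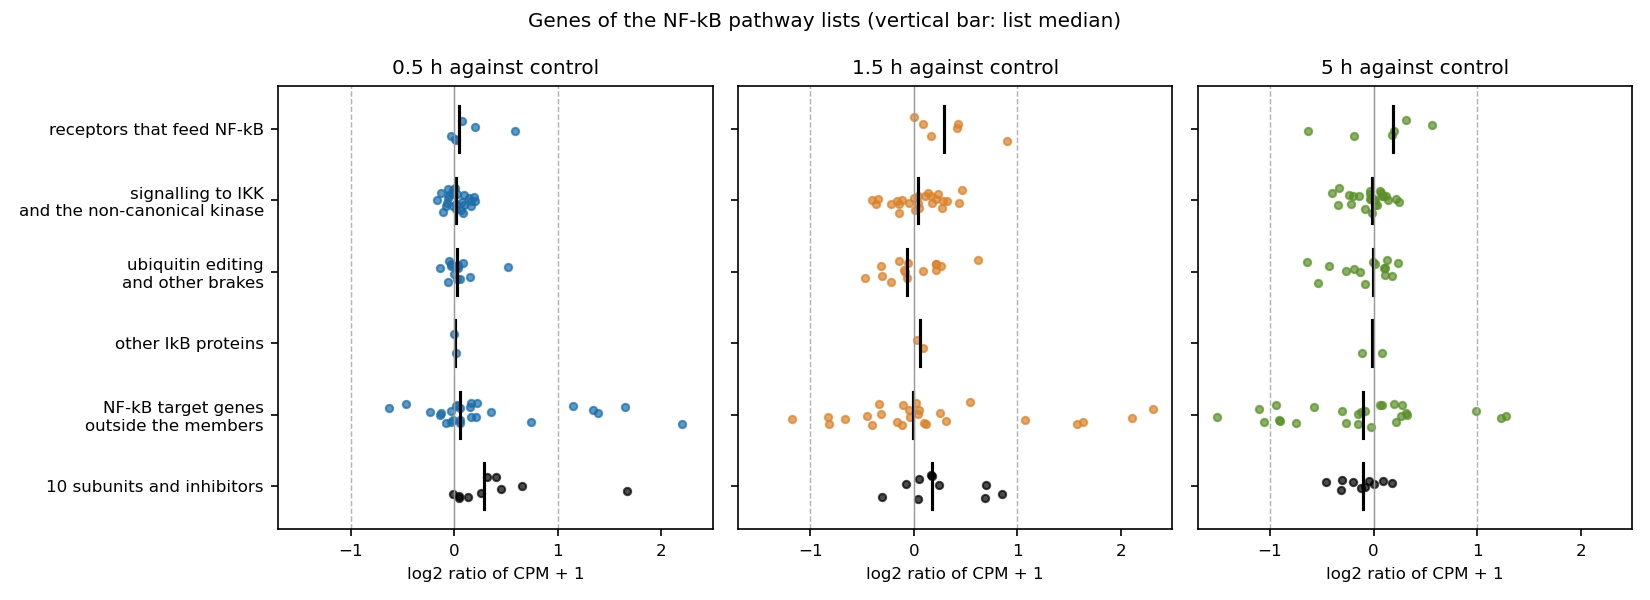
log2 ratios (CPM plus 1) to control of the measured genes of 5 pathway lists and, in black, of the 10 subunits and inhibitors, at 0.5, 1.5 and 5 h. Each point is a gene, the vertical bars are list medians and the dashed lines mark 2-fold. The signalling genes stay within 2-fold at each time, and the points beyond it are genes of the target list and Nfkbid.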

How the data were processed

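Poly(A) RNA libraries were sequenced on an Illumina instrument, per the labels' protocols, which name a TruSeq or NEBNext kit without saying which library had which. The submitters' processing notes name CASAVA 1.8.2 and mm10. The aligner, the counting program and the strand counted were not given in the sources used here. Deposited by the authors are tables of counts per gene and lane, not normalized, as exon, gene, junction and border reads, per the file headers. 0 columns were left unmatched to a sample. The 16 samples are 4 lanes of 4 libraries, summed here; lanes held 7631791 to 8709054 total exon reads. Exon lengths and gene positions are those in the deposited tables.

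CPM and RPKM were computed from total exon reads. Reads outside exons are total gene reads minus total exon reads. Ratios added 1 CPM, calls needed 2-fold and 5 CPM, and printed folds add nothing, with exact Clopper-Pearson 95% intervals. The limit set by 0 reads, 3 counts, lay between 0.0869 and 0.0976 CPM. With 1 library per condition no test was run. Alternatives were TMM factors (edgeR 4.0.16), DESeq2 1.42.0 size factors, other pseudocounts, floors and limits, unique exon reads, total gene reads, leaving out lanes and lanes as blocks. The text names all 10 members, called or most changed list genes (up to 2 per list and comparison, not all printed) and the 3 genes nearest to a called member. Slfn2 was named beside Ccl4, outside this rule. The members and lists were chosen with earlier results of these data known. The call rule was tested on counts simulated from the control library's rates with counting error only, which cannot show the spread between cultures. 1 gene of the pathway lists is not reported here. Intervals came from scipy 1.17.1 under Python 3.11.15, and R was 4.3.3.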

Additional observations from a re-analysis of the deposited data

Results flagged for a closer look

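In 3 of 80 sets of 4 lanes, 1 lane lay far from the other 3, beside about 1 in 20 such sets by chance. Rela at 0.5 h had 94.59 CPM in lane 4 and 86.58 to 87.59 CPM in the others. Rel at 1.5 h had 57.48 CPM in lane 2 and 51.88 to 52.48 CPM in the others. Nfkb2 at 0.5 h had 60.69 CPM in lane 3 and 63.03 to 63.45 CPM in the others. The lanes are technical repeats of 1 library.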

How the results depend on the processing

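The direction of the members' exon ratios changed in 10 of 550 alternative values, and these had main sizes of at most 0.047. TMM and DESeq2 scaling moved the median of all genes by at most 0.021 and changed no count of members. The call of Nfkbid at 0.5 h held under every alternative. From 1.5 h to 5 h the 1 lower call (Nfkbid) became 2, with Relb added, with a pseudocount of 0.1 CPM, in unique exon reads, in total gene reads and with lanes as a replicate block, and 0 with a pseudocount of 5 CPM; leaving out 1 lane gave 1 to 2. From 0.5 h to 1.5 h 1 member, Nfkbid, was called lower in total gene reads, against 0. At a limit of 1.5-fold the members called were 2 higher at 0.5 h, 3 higher at 1.5 h, 1 higher (Nfkb2) and 3 lower (Nfkbid, Nfkbiz and Tnfaip3) from 0.5 h to 1.5 h, and 3 lower from 1.5 h to 5 h. The counts of all genes called, per comparison and direction, ranged from 14 to 321 at that limit, from 0 to 32 with a pseudocount of 5 CPM, and from 1 to 44 with a floor of 20 CPM. In reads outside exons, Relb made 1 higher call at 1.5 h, against 0, with a pseudocount of 0.1 CPM, and leaving out 1 lane gave 0 to 1. With a pseudocount of 5 CPM 0 lower calls were left from 0.5 h to 1.5 h and from 1.5 h to 5 h, against 1 each.

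Genes of the pathway lists called, over all 5 lists, were 4 higher at 0.5 h, beside 0.284% of all genes, and 4 higher at 1.5 h, beside 0.641%. At 5 h 1 was higher and 2 lower, beside 0.336% and 0.399%, and 3 were lower from 1.5 h to 5 h, beside 0.444%. At 1.5-fold the calls were 6 higher and 1 lower at 0.5 h, beside 0.673% and 0.147% of all genes. At 1.5 h they were 6 higher and 3 lower, beside 3.37% and 1.99%, and at 5 h 1 higher and 8 lower, beside 2.21% and 2.98%. There were 1 higher and 3 lower from 0.5 h to 1.5 h, beside 1.76% and 1.84%. From 1.5 h to 5 h there were 1 higher and 7 lower, beside 1.3% and 2.12%. With a pseudocount of 0.1 CPM 5 were lower from 1.5 h to 5 h. Without a floor 1 was lower at 1.5 h and 2 higher at 5 h, with a floor of 20 CPM 2 were higher at 0.5 h, and in unique exon reads 1 was higher from 0.5 h to 1.5 h. The cause was not tested. Deviations of same-numbered lanes across libraries had correlations from -0.020 to 0.021, beside -0.032 to 0.037 for other lanes, so no shared lane effect was seen. In unique exon reads the lanes differ by about counting error, so this cannot show whether lane numbers pair the libraries. With lanes as a replicate block the lower calls from 1.5 h to 5 h were 2, and no other count of members changed. Depth limits Tnfaip3 and Nfkbia in reads outside exons, with 10 to 34 reads per library.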
